A study of Mus musculus with 25 samples.

Results

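The EGR factors and NAB corepressors measured here are 5 genes, Egr1, Egr2, Egr3, Nab1 and Nab2, taken by symbol from the 24411 gene rows of a mouse macrophage RNA-seq series. All 5 passed the filter on low counts that left 10612 genes for testing, Egr3 only through the samples stimulated for 1 h. The 25 samples came from 9 conditions. BMDMs, macrophages grown from C57BL/6 bone marrow with 25 ng/ml of the growth factor M-CSF for 4 days, made up 7 groups of 3 samples. They were an untreated control, labelled as cultured for 4 h, cells given 100 U/ml IFN-γ and 100 ng/ml LPS and labelled 1, 4, 12 or 24 h (IFN-γ-primed LPS), and cells given 10 ng/ml of IL-4 or of IL-13 for 12 h. RAW264.7, a mouse macrophage cell line transformed with Abelson virus, gave 2 groups of 2 samples, untreated (labelled 4 h) and given 100 ng/ml LPS, without IFN-γ, for 4 h. All BMDM groups were compared with the same 3 control samples, so their changes are not independent of each other, and for the 1, 12 and 24 h groups treatment and time in culture cannot be told apart.

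EGR proteins are zinc-finger transcription factors that bind GC-rich sites. Their genes are classic immediate early genes: the ERK kinase cascade activates ternary complex factors, which act with SRF on CArG boxes in the promoters, and transcription starts within minutes without new protein. NAB1 and NAB2 bind EGR1, EGR2 and EGR3 and mostly repress their activity, NAB2 by way of the NuRD chromatin complex, and NAB2 is itself an EGR target in several cell types. In the myeloid lineage EGR1 and EGR2, with the NAB proteins, are known for favouring macrophage over neutrophil fate, and EGR2 is known as a factor of IL-4-stimulated macrophages.

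Only sense counts entered the analysis, and the ribosomal precursor Rn45s was left out, which took 20.1% to 39.8% of each sample's counts. This left 1502618 to 2532496 counts per sample, so that 1 count was worth 0.347 to 0.885 CPM (counts per 1000000 counts of the TMM-scaled library) and a level of 3 counts, taken as the detection limit, 1.04 to 2.66 CPM. All 8 macrophage markers were detected in every BMDM group, and in RAW264.7 cells all but Mertk, which was at 0 in those 4 samples; their summed levels were 8531.7 to 32893 CPM. The erythroid markers were at 0, and neutrophil, dendritic and B cell markers each summed to at most 4.35 CPM. Of the 4 T cell markers Cd3e, Cd3g and Cd8a were at 0 in every sample. The remaining one, Lck, rose at 4 h of IFN-γ-primed LPS from 0.893 ± 0.817 to 9.12 ± 4.41 CPM (log2 fold change 3.25, adjusted p = 8.53e-06). It was back at 0.842 ± 1.002 CPM at 12 h. Lck entered the test only through the 4 h samples, so its p-value is no separate evidence of the rise. The part of Lck in the 4 h results was not tested. The 4 fibroblast markers summed to 54.0 to 141 CPM in BMDMs and to 0 in RAW264.7 cells, and in bulk samples fewer cells of a type and less RNA per cell cannot be told apart. A gene passed the test at an FDR of at most 0.01 (quasi-likelihood F-test of edgeR, adjusted over the 10612 genes by Benjamini-Hochberg) if its log2 fold change also reached 1 in either direction, or 0.7 where IL-4 or IL-13 was compared with control or with each other.

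The 3 EGR genes were upregulated together 1 h after IFN-γ-primed LPS, and the 2 NAB genes did not pass the test at that time. Egr3 had entered the test only through these samples, and of the other 4 members 2 passed, both upward, where 11.8% of all genes tested passed in either direction. Egr1 (chr18:34859823-34864984 of mm10, plus strand) lies at the centre of the immediate early response. Its 3 control samples held 4.83, 7.06 and 4.28 CPM (9, 13 and 8 counts), and its 1 h samples 286, 293 and 294 CPM (512, 456 and 582 counts). The groups were far apart and the 1 h samples close to each other. The log2 fold change was 5.74 ± 0.18 (approximate SE, from the F statistic), with an adjusted p of 4.78e-41. By size of increase Egr1 ranked 73 among all genes tested.

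Egr2 (chr10:67535475-67542188, plus strand), the member that is also known from alternatively activated macrophages, started from a higher level. Control samples held 18.3, 28.2 and 16.0 CPM, and 1 h samples 174, 183 and 195 CPM. Every 1 h sample thus lay above every control sample, and the log2 fold change was 3.14 ± 0.15 (adjusted p = 1.4e-30). Egr3 (chr14:70077203-70082614, plus strand), which binds the same kind of site, was barely detected outside this time point. It had 0, 1 and 1 counts in the control samples and 12, 17 and 14 counts at 1 h (6.71, 10.9 and 7.08 CPM). The log2 fold change of 4.27 ± 0.69 (adjusted p = 4.54e-07) rests on 2 control counts, and the count ratio was 22.5 with an exact 95% interval of 5.87 to 192, which covers counting error only. Egr4, the remaining family member, had 1 count in 1 of the 1 h samples and none in any other sample, and was not tested.

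**Figure D1:**
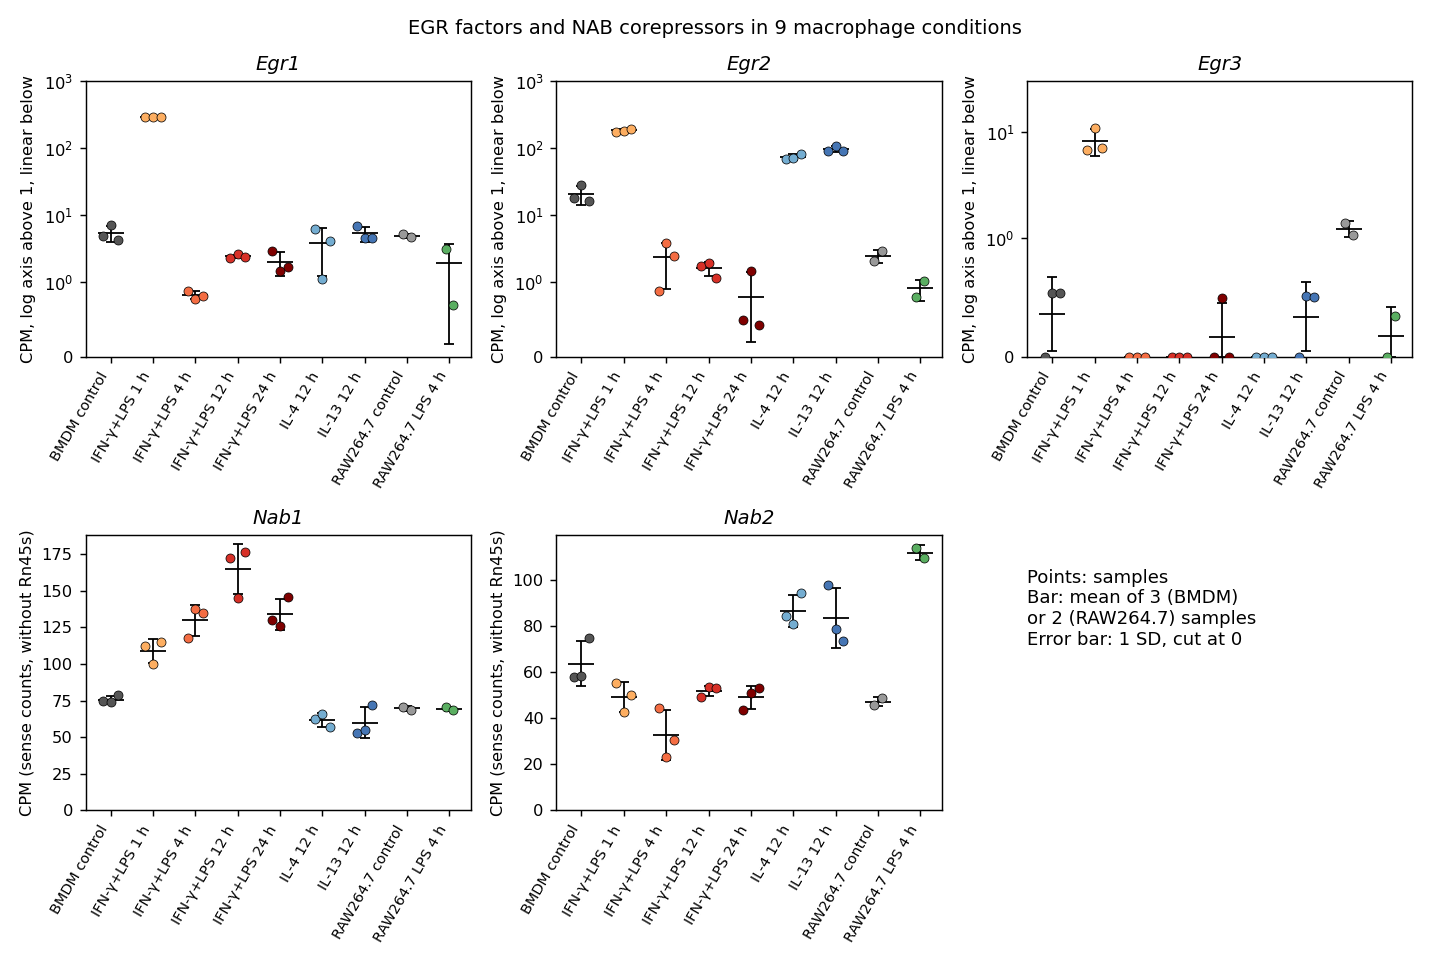
Level of each gene in every sample in CPM (sense counts without Rn45s, TMM-scaled), with the mean and 1 SD of the 3 BMDM or 2 RAW264.7 samples. The upper 3 plots have an axis that is logarithmic above 1 and linear below, and the lower 2 are linear from 0. The EGR genes peak at 1 h, Egr2 is also high with IL-4 and IL-13, Nab1 is highest at 12 h and Nab2 in LPS-treated RAW264.7 cells.

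The RefSeq start sites of Egr2 show the promoter element through which SRF is known to act. The 250 bases before its start site at 67537869 (build GRCm38.p6, chr10:67537619-67537868, plus strand, within no GENCODE exon) are shown because they hold a CArG box, in capitals, 72 to 63 bases before the start site. The start site at 67537566 has another at the same distance, printed with the surrounding 30 bases (chr10:67537484-67537513).
Egr2, start site 67537869: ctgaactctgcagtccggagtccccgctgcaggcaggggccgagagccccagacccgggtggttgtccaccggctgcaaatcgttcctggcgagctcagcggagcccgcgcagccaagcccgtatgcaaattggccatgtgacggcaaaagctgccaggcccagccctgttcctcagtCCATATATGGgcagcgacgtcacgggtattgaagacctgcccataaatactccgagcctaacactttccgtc
Egr2, start site 67537566: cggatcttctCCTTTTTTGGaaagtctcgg
CArG boxes, searched on both strands, occurred in 1.47% of the 32851 RefSeq windows of 250 bases before a start site. The window before the upstream start site of Egr2, at 67535499, held no CArG box but overlapping matches to a kappa B site 117 to 107 bases before it, a motif found in 7.25% of windows. Start sites of Egr1 and Egr3 were not analysed here. A match is a description of the letters and not of binding.

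By 4 h the EGR transcripts were almost gone. From 1 h to 4 h all 3 EGR genes fell. Without Egr3, whose fall is tied to the samples that admitted it to the test, 2 of 4 members passed, where 21.7% of all genes did in either direction. Egr1 had 1 count in each of the 4 h samples (0.885, 0.776 and 0.820 CPM). The fall, by 8.36 ± 0.27 on the log2 scale (adjusted p = 8.92e-40), was the largest of all 10612 genes, and the 1 h counts were 353 times the 4 h counts after scaling, with an exact 95% interval of 121 to 1710. Egr2 had 1, 5 and 3 counts at 4 h (0.885, 3.88 and 2.46 CPM) and fell by 6.18 ± 0.25 (adjusted p = 6.89e-35). Egr3 had no count in any 4 h sample, which puts its 1 h level at least 9.8-fold higher than a limit of 3 counts over the 4 h group (adjusted p = 4.65e-07).

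The 4 h levels of Egr1 and Egr2 were below those of untreated cells. In the comparison of 4 h with control 2 of 5 members passed, both downward, where 32.1% of all genes passed. Egr1 fell by 2.61 ± 0.66 on the log2 scale (adjusted p = 0.000487). With 3 counts at 4 h and 30 in the control, the control counts were 6.52 times higher, with an exact interval of 2.03 to 33.4. Egr2 fell by 3.04 ± 0.38 (adjusted p = 7.07e-11), and its highest 4 h sample, at 3.88 CPM, lay below its lowest control sample, at 16.0 CPM. Egr3 was at 0 at 4 h and under the detection limit in the control, so no fold is given.

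Egr2 stayed low through 24 h, and Egr1 had levels at 12 and 24 h that the depth resolves poorly. At 12 h Egr2 had 3, 3 and 2 counts (1.73, 1.95 and 1.18 CPM) and at 24 h 1, 3 and 1 counts (0.489, 1.49 and 0.421 CPM). These levels were 3.64 ± 0.37 and 4.63 ± 0.40 below control on the log2 scale, with adjusted p of 8.74e-14 and 5.86e-17. No sample of either time exceeded 3 counts, and the control counts were 26.8 times the 24 h counts after scaling, with an exact interval of 11.1 to 84. Egr1 had 4 counts in each 12 h sample (2.31, 2.60 and 2.35 CPM) and passed neither against control (log2 fold change −1.14 ± 0.46, adjusted p = 0.0331) nor against 4 h (1.48, 95% interval −0.12 to 3.08, adjusted p = 0.134). At 24 h it had 6, 3 and 4 counts (2.93, 1.49 and 1.68 CPM) and passed narrowly, with a log2 fold change of −1.39 ± 0.45 (adjusted p = 0.00727). That last call was lost with DESeq2 (adjusted p = 0.0126) and without either control replicate 1 (0.0114) or 2 (0.0605), or 24 h replicate 2 (0.0335) or 3 (0.036). In all, 2 of 5 members passed at 12 h, where 26.2% of genes did, and 2 of 5 at 24 h, where 23.2% did. No member passed from 4 h to 12 h (17.5% of all genes did) or from 12 h to 24 h (3.64% of all genes).

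**Figure D2:**
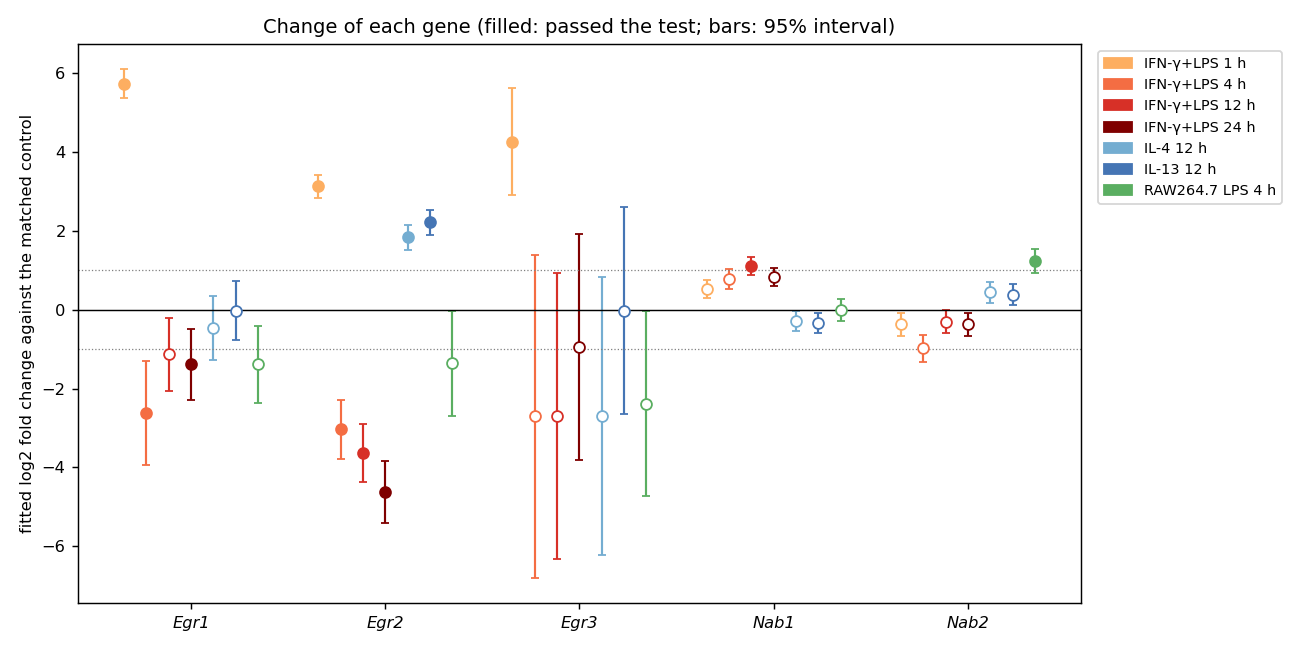
Fitted log2 fold change of each gene against its own untreated control for the 7 treatments, with approximate 95% intervals from the F statistic. Filled points passed the test, open points did not, and dotted lines mark a log2 fold change of 1 in either direction. Egr1, Egr2 and Egr3 rise to 5.74, 3.14 and 4.27 at 1 h, Egr2 is the only member that passes with IL-4 (1.84) and IL-13 (2.22), and the wide bars of Egr3 after 1 h show how little its counts resolve.

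With IL-4 and IL-13, Egr2 alone of the 5 members was upregulated. IL-4 passed 1 of 5 members against 3.37% of all genes, and IL-13 1 of 5 against 4.75%. Egr2 held 69.7, 71.2 and 82.9 CPM (133, 128 and 139 counts) in the IL-4 samples. In the IL-13 samples it held 90.3, 109 and 91.6 CPM (157, 213 and 181 counts). All 6 samples lay above the highest control sample, at 28.2 CPM, and below the lowest 1 h sample of IFN-γ-primed LPS, at 174 CPM. The log2 fold change was 1.84 ± 0.16 for IL-4 (adjusted p = 1.07e-14) and 2.22 ± 0.16 for IL-13 (adjusted p = 1.21e-19). By size of increase Egr2 ranked 95 with IL-4 and 64 with IL-13 among the 10612 genes.

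The other EGR genes did not share this increase at 12 h, and no earlier cytokine sample was analysed here. Egr1 held 6.29, 1.11 and 4.17 CPM with IL-4 and 6.91, 4.60 and 4.56 CPM with IL-13, ranges that overlapped the control's. Its log2 fold changes were −0.46 (95% interval −1.27 to 0.35) and −0.02 (−0.77 to 0.72). Egr3 had no count with IL-4 and 0, 1 and 1 counts with IL-13, all under the detection limit. Rn45s reads on the opposite strand made up 0.00603% to 0.0214% of the Rn45s reads in the IL-4, IL-13 and 24 h libraries and 0.0386% to 0.122% in the control, 1, 4 and 12 h libraries, a difference between sets of libraries whose part in these results was not tested. The control was labelled 4 h and the cytokine groups 12 h, so that time in culture and cytokine cannot be told apart.

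Between the cytokines, Egr2 was higher with IL-13 in every sample, but the difference did not pass. IL-13 over IL-4 gave a log2 fold change of 0.38 ± 0.13, with a 95% interval of 0.13 to 0.64 and an adjusted p of 0.434 (unadjusted p = 0.00346). None of the 5 members passed in this comparison, where 0.0471% of all genes did. The intervals of Nab1 (−0.31 to 0.22) and Nab2 (−0.31 to 0.20) included 0. Egr2 was therefore neither shown to differ between IL-4 and IL-13 nor shown to be alike.

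Set side by side at 12 h, Egr2 was lower and Nab1 higher with the classical than with either alternative stimulus. IFN-γ-primed LPS for 12 h was lower than IL-4 in Egr2 by 5.48 ± 0.28 on the log2 scale (adjusted p = 2.25e-28) and lower than IL-13 by 5.86 ± 0.27 (adjusted p = 1.7e-31). Nab1 was higher than with IL-4 by 1.41 ± 0.12 and than with IL-13 by 1.46 ± 0.12 (adjusted p = 2.13e-17 and 4.53e-18). Nab2 was lower by 0.74 ± 0.14 and 0.68 ± 0.14, which passed the FDR (adjusted p = 7.85e-06 and 3.14e-05) but not the size of change. So 2 of 5 members passed in each comparison, where 24.4% of genes passed against IL-4 and 24.3% against IL-13. Without scaling factors Nab2 passed both (−1.08 and −1.06). Opposite-strand reads were 0.0827% to 0.122% of the Rn45s reads in the 12 h IFN-γ-primed LPS samples and 0.00603% to 0.0214% with IL-4 and IL-13. The part of this difference between sets of libraries was not tested.

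Both the size and the make-up of the EGR pool differed between conditions. Levels were divided by exon length (3.4 to 4.48 kb) to compare genes. In control BMDMs the summed level was 7.42 ± 2.26 CPM per kb (SD, n = 3), and Egr2 made up 82.6% ± 1.0 of it. At 1 h the sum was 121 ± 4.0 CPM per kb, with 53.7% ± 1.0 from Egr1 and 44.7% ± 1.1 from Egr2. With IL-4 the sum was 22.8 ± 2.2 and with IL-13 29.8 ± 2.9 CPM per kb, and Egr2 made up 96.3% ± 2.6 and 95.7% ± 1.0. Thus the transcript pool was shared by Egr1 and Egr2 after 1 h of IFN-γ-primed LPS and was nearly all Egr2 after 12 h with the cytokines. The 1 h and the cytokine samples did not overlap in the share of Egr2 (at most 46.01% against at least 93.6%). No cytokine sample earlier than 12 h was analysed here, so stimulus and time cannot be told apart. At 4, 12 and 24 h the sums were 0.893 ± 0.429, 1.02 ± 0.14 and 0.727 ± 0.202 CPM per kb. Shares at those times rest on a few counts per sample and have no firm order.

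**Figure D3:**
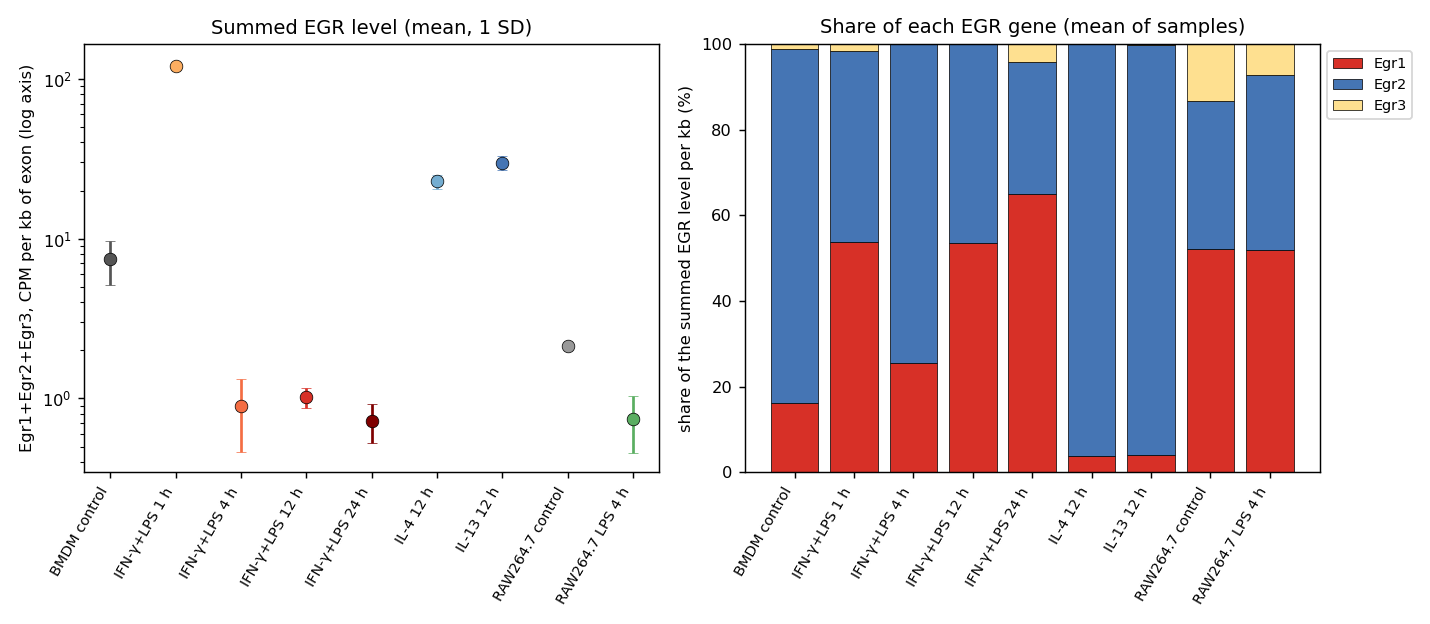
Left, summed level of Egr1, Egr2 and Egr3 per kb of exon on a log axis, as mean and 1 SD of the 3 BMDM or 2 RAW264.7 samples. Right, mean share of each gene in that sum in percent. The sum runs from 121 CPM per kb at 1 h to under 1.1 CPM per kb at 4, 12 and 24 h, and Egr2 makes up over 95% of it with IL-4 and IL-13.

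Nab1 (chr1:52457294-52500679, minus strand) had its highest levels in the IFN-γ-primed LPS time course, later than the EGR peak. Control samples held 74.6, 73.8 and 78.6 CPM, and 12 h samples 172, 145 and 176 CPM. At 12 h all samples were above all control samples, and Nab1 was upregulated with a log2 fold change of 1.12 ± 0.12 (adjusted p = 9.59e-14). At 1, 4 and 24 h the means were 109 ± 8, 130 ± 11 and 134 ± 10 CPM (SD, n = 3), with log2 fold changes of 0.53, 0.78 and 0.82. Each of these had an adjusted p of at most 0.00022 and a change under the cutoff of 1. The size depends on the scaling: TMM factors were 0.717 to 0.752 at 4 h and 0.818 to 0.885 at 12 h against 1.09 to 1.11 in the control, and without them the median of all genes moved by −0.58 (4 h) and −0.35 (12 h) on the log2 scale. Nab1 was then at 0.77 at 12 h, no longer past the cutoff, and at 0.20 at 4 h (adjusted p = 0.133).

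Nab2 (chr10:127660918-127668568, minus strand), the corepressor gene with a described EGR response, was lowest at 4 h. Control samples held 58.0, 58.1 and 74.9 CPM, and 4 h samples 44.3, 23.3 and 30.3 CPM. The groups did not overlap, and the log2 fold change of −0.98 ± 0.17 (adjusted p = 1.09e-06) was just short of the cutoff of 1. It passed the cutoff without scaling factors (−1.56), with a minimum of 10 counts in every sample (−1.17), with Rn45s kept (−1.001), in the study's own set of samples (−1.03), and without control replicate 1 (−1.05) or 2 (−1.04) or 4 h replicate 1 (−1.26). At 1, 12 and 24 h the levels were 49.3 ± 6.5, 51.8 ± 2.3 and 49.1 ± 5.0 CPM, with log2 fold changes of −0.36, −0.30 and −0.37 and adjusted p of 0.0465, 0.0798 and 0.0231. From 4 h to 12 h Nab2 was higher by 0.68 ± 0.18 (adjusted p = 0.0013), under the cutoff of 1. With IL-4 it held 84.3, 80.6 and 94.2 CPM, all above the control samples, and with IL-13 97.8, 78.8 and 73.4 CPM, and neither comparison passed (log2 fold changes 0.44 and 0.38, adjusted p = 0.0219 and 0.0452). Nab1 held 61.7 ± 4.8 and 59.9 ± 10.5 CPM with these cytokines and did not pass either (−0.29 and −0.33, adjusted p = 0.149 and 0.0718).

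The ratio of Nab2 to Nab1 counts within a sample does not depend on library size or scaling. It was 0.777, 0.787 and 0.952 in the control samples. At 1 h it was 0.493, 0.426 and 0.436, and at 4 h 0.376, 0.169 and 0.226. At 12 and 24 h it ran from 0.285 to 0.403. All 12 samples given IFN-γ-primed LPS were thus below all control samples. With IL-4 it was 1.35, 1.22 and 1.66 and with IL-13 1.85, 1.44 and 1.02, so that all 6 of those samples lay above the control. These ratios are a description, without a test. The 4 fibroblast markers, summed, held 74.9 to 108 CPM in the control and 93.1 to 141 CPM at 4 h, with 1 of 4, Pdgfrb, passing the test upward there, and they held 72.9 to 90.7 CPM at 12 h and 54.0 to 102 CPM with IL-4 and IL-13. Pdgfrb was also above control at 12 h (log2 fold change 2.20) and 24 h (1.87), and at 12 h 2 of 4, Pdgfrb and Dcn, were higher than with IL-4 (2.58 and 1.18) and than with IL-13 (2.65 and 1.07), the comparisons in which Nab1 passed; the part of these markers in the NAB levels was not tested.

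**Figure D4:**
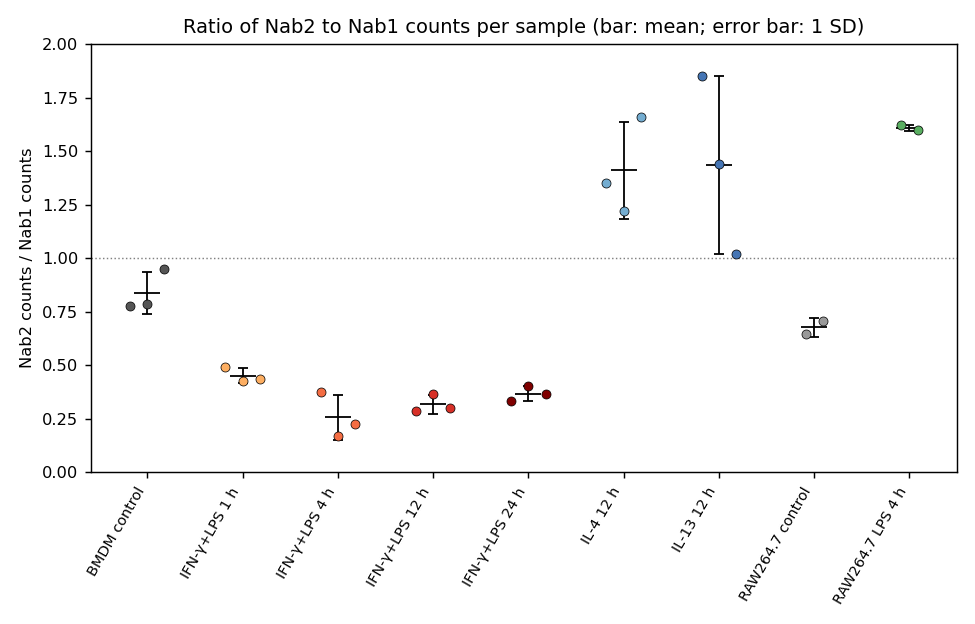
Ratio of Nab2 to Nab1 read counts in every sample, with the mean and 1 SD per group; the dotted line marks equal counts. IFN-γ-primed LPS samples lie at 0.169 to 0.493, control BMDMs at 0.777 to 0.952, and IL-4 and IL-13 samples and LPS-treated RAW264.7 cells above 1.

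The windows before the NAB start sites hold letters of the EGR binding site, shown because NAB2 is a described EGR target. GCGNGGGCG, searched on both strands, occurred in 4.7% of all windows of 250 bases, and GCGTGGGC, most of which lies within it, in 1.37%. Both motifs are made mostly of G and C, which are 80.8% of the Nab1 window and 72.8% of the Nab2 window. The share among windows equally rich in G and C was not counted, so these percentages do not say how rare the matches are. The window of Nab1 (start site 52500448, minus strand) held GCGNGGGCG at 3 places, 141 to 133, 109 to 101 and 38 to 30 bases before the start site, and GCGTGGGC within the upstream pair. Of its 250 bases 231 lie in GENCODE exons, as do all 3 matches, so that they are within annotated transcript sequence and not only upstream of it. That of Nab2 (start site 127666703, minus strand) held GCGTGGGC 32 to 25 bases before the start site, outside GENCODE exons, and no GCGNGGGCG. Each match is printed in capitals within 30 bases, 5′ to 3′ along the gene; the upstream match of Nab1 and that of Nab2 read on the opposite strand.
Nab1, 141 to 133 bases before (chr1:52500570-52500599): gccccgcggcCGCCCACGCcgggatctgcg
Nab1, 109 to 101 bases before (chr1:52500538-52500567): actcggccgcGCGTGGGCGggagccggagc
Nab1, 38 to 30 bases before (chr1:52500467-52500496): gcggggcgggGCGGGGGCGgcggaggtggc
Nab2, 32 to 25 bases before (chr10:127666717-127666746): cccccggttctGCCCACGCcctcctcccgc
The Nab1 window also held a kappa B site 71 to 62 bases before the start site. No EGR binding was measured in these samples.

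**Figure D5:**
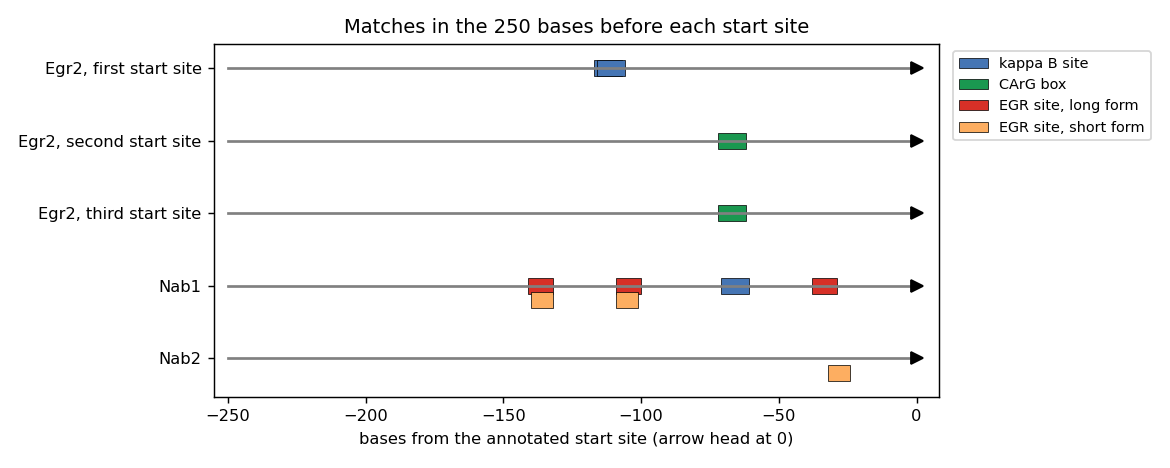
Matches to 4 motifs in the 250 bases before RefSeq start sites of Egr2, Nab1 and Nab2, by distance in bases from the start site at 0; the long and short forms of the EGR site are GCGNGGGCG and GCGTGGGC. CArG boxes lie 72 to 63 bases before the second and the third start sites of Egr2, and Nab1 has 3 long EGR matches.

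In RAW264.7 cells given LPS for 4 h, Nab2 was upregulated, whereas in BMDMs given IFN-γ-primed LPS for 4 h it lay below control. RAW264.7 control samples held 45.8 and 48.6 CPM of Nab2 and LPS samples 114 and 110 CPM. Both LPS samples thus exceeded both control samples, with a log2 fold change of 1.24 ± 0.15 (adjusted p = 2e-10). Nab2 was the 1 member of 5 that passed, where 9.35% of all genes did. The difference between the RAW264.7 and the BMDM response at 4 h was 2.22 ± 0.23 for Nab2 (adjusted p = 3.46e-13). It passed for 1 of 5 members and for 19.0% of all genes. RAW264.7 cells received LPS without IFN-γ, so that cell type and agent cannot be told apart, and there were 2 samples a group.

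Nab1 showed no detectable difference between the RAW264.7 groups. Its 4 samples ran from 68.3 to 70.8 CPM, the LPS and control samples overlapped, and the log2 fold change was −0.01 with a 95% interval of −0.29 to 0.27. Its response differed from that of BMDMs by −0.79 ± 0.19 (adjusted p = 0.000428), under the size cutoff, and by −0.35 (adjusted p = 0.126) without scaling factors. The Nab2 to Nab1 count ratio was 0.647 and 0.709 in RAW264.7 control and 1.62 and 1.60 with LPS.

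The EGR genes were low in RAW264.7 cells. Egr1 had 15 and 13 counts in the control (5.21 and 4.71 CPM) and 8 and 2 with LPS (3.19 and 0.693 CPM), a log2 fold change of −1.39 ± 0.50 that did not pass (adjusted p = 0.0285). It rested on the second LPS sample: the value was −2.73 (adjusted p = 0.00473) without LPS replicate 1 and −0.62 without LPS replicate 2. Egr2 had 6 and 8 counts in the control and 2 and 3 with LPS (adjusted p = 0.13), and Egr3 4 and 3 against 0 and 1 (adjusted p = 0.133). Untreated, the cell line differed from BMDMs in Egr2, at 2.08 and 2.90 CPM, which was 3.04 ± 0.33 lower on the log2 scale (adjusted p = 4.88e-13). This was the 1 member of 5 to pass between the controls, where 47.5% of all genes did. Egr1, at 4.71 to 5.21 CPM, lay within the range of the BMDM control. No sample of RAW264.7 cells at 1 h was analysed here.

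The summed EGR level over the summed NAB level, both per kb, puts the families side by side. It was 0.188 ± 0.069 in control BMDMs and 2.81 ± 0.31 at 1 h of IFN-γ-primed LPS. At 4, 12 and 24 h it was 0.0211 ± 0.0106, 0.0178 ± 0.0037 and 0.0150 ± 0.0049. With IL-4 and IL-13 it was 0.513 ± 0.035 and 0.699 ± 0.114. The ratio exceeded 1 in the 1 h samples alone (2.52, 3.14 and 2.77), and the cytokine samples lay between these and the control. In RAW264.7 cells it was 0.0642 ± 0.0008 (n = 2) in the control and 0.0135 ± 0.0049 with LPS. Most of this range came from the EGR genes, since the NAB sum stayed between 33.0 and 57.7 CPM per kb as group means.

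Ordered by mean level, Egr1 was highest at 1 h, and among the 8 other conditions each neighbouring pair overlapped. For Egr2 the order was 1 h, IL-13, IL-4, control and then the 5 remaining conditions, and none of the leading 4 overlapped its next neighbour. For Nab1 the 12, 24 and 4 h groups of IFN-γ-primed LPS overlapped in turn at the top, followed by 1 h and the BMDM control without overlap. For Nab2 the LPS-treated RAW264.7 cells stood above all, followed by IL-4 and IL-13, which overlapped each other and, with IL-13, the control. Across the 21 BMDM samples the Pearson r of log2 levels was 0.951 for Egr1 and Egr3, 0.674 for Egr1 and Egr2, and −0.76 for Nab1 and Nab2. Among BMDMs Egr3 exceeded the detection limit at 1 h alone, so its r restates the 1 h rise and shows nothing about the other groups. These correlations share the 7 groups and their scaling and are descriptions.

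The genes whose log2 levels were most like each member across the 21 BMDM samples were sought among 8727 genes. Egr1 was followed by Nr4a1, an orphan nuclear receptor gene of the immediate early class (r = 0.957), Extl3 (0.93) and Dnajb4, a heat shock protein gene (0.928). The level of Nr4a1 went from 5.21 ± 0.66 CPM in untreated BMDMs to 68.3 ± 8.4 at 1 h and was 0.554 ± 0.483 at 4 h. Egr2 was followed by Haus8 (0.959), Plau, which encodes the urokinase plasminogen activator (0.95), and Myc (0.946). Plau went from 168 ± 28 CPM in untreated BMDMs to 428 ± 13 at 1 h, was 54.1 ± 6.6 at 4 h, and was 176 ± 10 with IL-4 and 196 ± 19 with IL-13. Egr3 was followed by Dnajb4 (0.952), Errfi1 (0.924) and Nr4a1 (0.922), values that rest on the 1 h samples, the only BMDMs in which Egr3 exceeded the detection limit. Nab1 was followed by AW011738 (0.976), Msr1, a scavenger receptor gene (0.974), and Cyfip1 (0.972), and Nab2 by Prune (0.934), Nr2f6 (0.933) and Fam63a (0.924).

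Other immediate early genes rose with the EGR genes at 1 h. Of 12 listed genes 11 were tested, and 9 passed upward at 1 h and none downward (11.8% of all genes in either direction), with a median log2 fold change of 1.22 over the list and −0.02 over all genes. The strongest were Ier3, from 4.29 ± 3.20 to 63.4 ± 8.2 CPM (log2 fold change 3.87), Ier2, from 20.6 ± 3.2 to 285 ± 4 CPM (3.79), and Nr4a1 (3.70). From 1 h to 4 h 7 fell and none rose (21.7% of all genes), among them Nr4a1, which fell by 6.80, Fos, which fell by 5.58, and Myc, which fell by 3.47. Against control at 4 h, 4 of the 11 passed upward and 4 downward, where 32.1% of all genes passed. Like Egr1 and Egr2, Nr4a1 and Fos ended below control (−3.10 and −4.37), while Junb was above it (2.89). With IL-4, Myc rose (1.02) with Ier3 (2.56) and Nr4a1 fell (−2.41), and with IL-13 Myc rose by 1.28 and Ier3 by 3.07 while Fos fell (−1.33). In RAW264.7 cells at 4 h of LPS 7 of the 11 passed upward (9.35% of all genes), among them Myc (5.38, from 0.362 to 17.3 CPM) and Ier3 (3.96), where Egr1 and Egr2 did not.

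Among the genes of SRF, its ternary complex factors and its coactivators, none of the 6 (Srf, Elk1, Elk3, Elk4, Mkl1, Mkl2) passed at 1 h. At 4 h 2 of 6 fell, Mkl2 by 2.08, from 136 ± 8 to 32.1 ± 2.5 CPM, and Mkl1 by 1.10, both SRF coactivators. Of 8 ERK cascade genes Map3k8, the kinase that carries LPS signals to ERK in macrophages, rose at 1 h from 37.5 ± 1.6 to 92.6 ± 4.2 CPM (log2 fold change 1.30) and at 4 h to 191 ± 7 CPM (2.35), and Map2k1 rose at 4 h (1.79). None of the 13 NuRD genes passed at 1 h. At 4 h, Hdac1 (1.16) and Mbd2 (1.02) rose and Chd3 fell by 1.21. These 4 h counts, 2 of 6, 2 of 8 and 3 of 13, lie near or below the 32.1% of all genes that passed at 4 h, and so are no result about these lists. The same holds for the 1 h counts, 0 of 6, 1 of 8 and 0 of 13, where 11.8% of all genes passed. None of the SRF, ERK cascade or NuRD genes passed with IL-4 or IL-13, where 3.37% and 4.75% of all genes did. With shares this low, that is no result about these lists either.

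Of 10 genes with described EGR sites 5 rose at 1 h and none fell, where 11.8% of all genes passed (median log2 fold change 1.09, all genes −0.02). Tnf rose from 28.2 ± 0.4 to 9517 ± 729 CPM, Icam1 from 39.5 ± 3.2 to 1517 ± 184 CPM and F3, the tissue factor gene, from 1.79 ± 0.81 to 18.9 ± 6.8 CPM. At 4 h, where 32.1% of all genes passed, 5 were above control and 1 below, with Tnf at 10942 ± 522 CPM and Icam1 at 5292 ± 256 CPM while Egr1 and Egr2 were near the detection limit. Pdgfa, a growth factor gene, fell by 2.10 from 1 h to 4 h and by 2.66 from control to 12 h, when its mean was 2.41 CPM. With IL-13, where 4.75% of all genes passed, 3 of the 10 fell, among them Pdgfb by 1.41 and Vegfa by 0.92. Only 1 rose, Cd44 by 0.79. With IL-4, where 3.37% of all genes passed, 1 of the 10 fell, Vegfa by 0.76, and none rose. At so low a share, the absence of a rise with IL-4 is no result about the list. In RAW264.7 cells 8 of 10 rose with LPS (9.35% of all genes passed), Tnf by 4.44 on the log2 scale. The list names genes with sites described elsewhere, and many of them also have other regulators.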

How the data were processed

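RNA-seq of 25 mouse macrophage samples was used. The authors deposited raw read counts per gene symbol, with no normalization, made by STAR 2.5.1 on the mm10 genome after adapter and quality trimming (Trimmomatic 0.33); the annotation release is not given in the sources used here. The protocols describe removal of ribosomal RNA and a strand-specific kit, while the labels give the molecule as polyA RNA, a conflict the sources do not settle. Sense counts without Rn45s were fitted in R 4.3.3 with edgeR 4.0.16 (filterByExpr by group, TMM, robust quasi-likelihood fit of all 25 samples with 1 mean per group), and DESeq2 1.42.0 was an alternative. CPM are TMM-scaled. Figures were made with Python 3.11.15 and matplotlib 3.10.9. Errors of fold changes are approximate standard errors derived from the F statistic of edgeR, and intervals of count ratios are exact and cover counting error only. The code was tested on simulated data. Gene positions and exon lengths are from GENCODE M21, and sequences from RefSeq on GRCm38.p6. RefSeq windows were used for Egr2, Nab1 and Nab2. The members and gene lists were chosen with earlier results of these data known. Every member that passed is named in its comparison, while values of members that did not pass are not all given. From each list up to 3 genes with the largest change among those past the test are named. A few values of other list genes are given for comparison. Similar genes were the 3 with the highest Pearson r of log2 CPM (prior count of 2). Groups follow the sample labels. The study calls the BMDM groups biological triplicates from independent RNA, but no label ties samples to animals or cultures, so p-values measure only the spread between these samples, which may be technical. Replicate pairs differed by 1.3 to 4.53 times sampling noise (chi-square per degree of freedom), so no library was present in duplicate within a group. Pairs across groups were not compared by this measure. Alternatives were other size factors, no scaling, other filters, unstranded counts, Rn45s kept, the study's own sets of samples, other cutoffs, DESeq2, a block for replicate number and leaving out each sample. BMDMs given LPS without IFN-γ were not analysed here.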

Additional observations from a re-analysis of the deposited data

Results flagged for a closer look

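The 4 h responses of Nab2 differed in direction between the cell types. The log2 difference, RAW264.7 minus BMDM, was 2.22 ± 0.23 (SE; edgeR adjusted p = 3.46e-13), from a log2 fold change of 1.24 with LPS in RAW264.7 cells and of −0.98 with IFN-γ-primed LPS in BMDMs, and in each cell type the treated and control samples did not overlap. The agents differ as well, so that cell type and IFN-γ cannot be told apart.

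Counts on the strand opposite to a gene entered no comparison. For Egr1 they were at 0 in all groups but the 1 h group of IFN-γ-primed LPS, which held 1, 1 and 3 of them (mean 0.906 CPM), next to 456 to 582 sense counts. They made up 0.294% of the Egr1 counts over all samples. With at most 30 Egr1 sense counts each, the other groups could not show such a share. Nab2 had 275 opposite-strand counts over all samples, which was 8.12% of its counts, against at most 0.334% for the other members. Its opposite strand held 8.75 ± 1.71 CPM at 1 h (13, 13 and 21 counts) against 5.21 ± 0.66 in the BMDM control (9, 11 and 9 counts). In RAW264.7 cells it held 5.39 ± 0.27 CPM with LPS (14 and 15 counts) against 2.49 ± 0.58 without (6 and 8 counts). These values were compared without a test. The sense level of Nab2 was 49.3 CPM at 1 h against 63.6 in the BMDM control, and 112 with LPS against 47.2 without in RAW264.7 cells.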

How the results depend on the processing

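The 21 member changes that passed the test kept their direction in all 294 refitted values, and 7 of these lost the call: Nab1 at 12 h without scaling factors (0.77) and with at least 10 counts in every sample (0.99), and Egr1 at 24 h under the 5 settings given above. Depth limits Egr3 outside 1 h, and Egr1 and Egr2 from 4 h on, to a few counts. With at least 10 counts in every sample, only Nab1 and Nab2 remained to be tested, and 0 members passed at 1, 12 and 24 h, with IL-4 and IL-13, from 1 h to 4 h and between the controls, and 1 at 4 h and at 12 h against either cytokine. With no minimum size of change 4 passed at 1 h, at 4 h and from 1 h to 4 h, 3 at 24 h and at 12 h against either cytokine, 1 from 4 h to 12 h, 2 between the controls and 2 in the difference of responses. With DESeq2 1 passed at 24 h, with a minimum log2 change of 2 the count in RAW264.7 cells was 0, and without scaling factors 4 passed at 12 h against IL-13. Of the 45 group means (5 members in 9 conditions), 26 stayed within 1 SD of their main value without scaling factors, and the rest moved further. With a sample left out, 2 to 3 members passed at 4 h, 1 to 2 at 24 h and 1 to 2 in RAW264.7 cells; where this leaves 1 sample in a group, it is assumed to vary like the others.

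Every change of sign concerned a value that had not passed. Nab1 in RAW264.7 cells turned from −0.0067 to 0.0236 with RLE size factors, 0.0399 with Rn45s kept, 0.0333 in the study's own set and 0.0238 with DESeq2. Without scaling factors Nab1 was −0.112 from 1 h to 4 h, Nab2 0.054 from 12 h to 24 h, and Egr1 0.134 and Nab1 0.132 in RAW264.7 over BMDM control. With DESeq2, Egr3 was −1.48 in the difference of responses. With a sample left out, the log2 change ran from −0.23 to 0.214 (Egr1) and from −0.532 to 0.438 (Egr3) with IL-13, from −0.198 to 0.0352 (Nab1) and −0.181 to 0.0284 (Nab2) for IL-13 over IL-4, from −0.0251 to 0.0226 for Nab1 in RAW264.7 cells, from −0.135 to 0.00572 for Nab2 from 12 h to 24 h, from −0.268 to 0.121 for Egr1 between the controls, and from −0.114 to 1.99 (Egr1) and −1.62 to 1.03 (Egr3) for the difference of responses. The cause of these changes was not tested.

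Same-numbered samples did not deviate together (mean r = 0.0144 over 63 pairs of samples, against −0.00724 for 126 pairs with different numbers), so the numbers were not taken to pair the samples. With the replicate block, 74 of 75 member values kept their direction and their call, and Egr1 in RAW264.7 over BMDM control went from −0.115 to 0.123.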

Other observations

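Nab2 and Stat6, the gene of the transcription factor that carries IL-4 and IL-13 signals, meet tail to tail on chromosome 10 and share 40 exon bases (chr10:127660918-127660957, GENCODE M21). Stat6 itself passed the test in none of the comparisons with control. Its level was 266 ± 9.85 CPM in control BMDMs, 310 ± 11 at 1 h and 249 ± 12 at 4 h of IFN-γ-primed LPS, 293 ± 10 with IL-4 and 269 ± 18 with IL-13 (SD, n = 3). In RAW264.7 cells it was 180 ± 3 CPM in the control and 221 ± 7 with LPS (n = 2; log2 fold change 0.29, edgeR adjusted p = 0.0368).

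Fosb, an immediate early gene that did not pass the filter on low counts, was detected mainly at 1 h. It held 5.20 ± 3.10 CPM at 1 h of IFN-γ-primed LPS, with samples from 1.93 to 8.09 CPM, and was at 0 in the control, 4 h, 12 h, IL-4 and IL-13 groups. At 24 h 1 of 3 samples held 0.421 CPM, and with LPS in RAW264.7 cells 1 of 2 held 0.347 CPM.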
